A study of Mus musculus with 21 samples.

Results

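The genes described here are 40 genes of the endoplasmic reticulum (ER) that take up, fold and process secretory proteins or respond when such proteins misfold. They were listed by function as ER chaperones, folding enzymes, degradation factors, subunits of the translocon and of signal peptidase, and regulators of the unfolded protein response. Each gene was read from the probe set with the highest mean log2 level over all 21 arrays among those annotated to it alone, which gave 39 of the 40 genes, out of 18194 genes in all. Sec61g, a small subunit of the translocation channel, was left out because its probe set is also annotated to 2 other genes.

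Total RNA of sorted bone marrow cells of C57/BL6 mice was hybridised to Affymetrix mouse arrays. Dot1l-deleted granulocyte-macrophage progenitors (GMP, 4 arrays) and Dot1l-deleted LSK cells (6 arrays), the Lin- Sca-1+ Kit+ cells that include stem cells and multipotent progenitors, came from Dot1l fl/fl x Mx-Cre mice injected with PIPC. Control GMP (5 arrays) and control LSK cells (6 arrays) came from mice of the genotype Dot1 wt/wt x Mx-Cre, so both genotypes carried the Mx-Cre transgene and, as the design text reads, both received PIPC, an inducer of interferon. Mx-Cre is switched on by interferon in many cell types, so the deletion is not limited to the sorted cells, and Dot1l encodes a histone H3 lysine 79 methyltransferase. The labels give neither the ages of the mice nor whether arrays come from different mice, so a p-value here covers the spread among samples of a group, which may be technical, and precision is limited by how few arrays there are.

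Secretory proteins enter the ER through the Sec61 channel, lose their signal peptide to signal peptidase, and are folded by chaperones of the HSP70, HSP90 and lectin families and by enzymes that form disulfide bonds or turn proline bonds. When unfolded proteins build up, the sensors encoded by Ern1 (IRE1), Eif2ak3 (PERK) and Atf6 start the unfolded protein response, which acts through the transcription factors XBP1, ATF4, cleaved ATF6 and, later, CHOP (Ddit3). Progenitors of the neutrophil and monocyte lineages make large amounts of granule proteases and myeloperoxidase, which pass through this machinery, and mice without Xbp1 in blood cells lack normal eosinophils.

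Several of these genes carry the ER stress response element, a bipartite site at which ATF6 and XBP1 act together with the CCAAT-binding factor NF-Y, and these sites are shown because they are the known link between the stress regulators and the chaperone genes listed. The element was searched as CCAAT, 9 bases of any kind and CCACG, and its second form as ATTGG, 1 base of any kind and CCACG, on both strands of the 300 bases from 250 before to 50 after the annotated start in RefSeq sequences of build GRCm38.p6, which listed 33 of the 40 genes. Capitals mark the constant letters, and each site is written 5′ to 3′ on the strand that matches.
Hspa5: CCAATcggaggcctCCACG
Hsp90b1, outer site: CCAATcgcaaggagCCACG
Hsp90b1, inner site: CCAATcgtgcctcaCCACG
Calr: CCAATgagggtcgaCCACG
Canx: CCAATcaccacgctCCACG
Dnajc3: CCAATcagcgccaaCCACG
Creld2: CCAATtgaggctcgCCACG
Pdia6: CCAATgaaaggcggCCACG
Dnajb11, second form: ATTGGcCCACG
Herpud1, second form: ATTGGgCCACG
The first form was present in 7 of the 33 promoters, or 21.2%, against 0.137% of the promoters of 27025 genes. The second form was present in 2 of 33, or 6.06%, against 0.0444% of all genes. The genes were listed by function and the element is a known feature of such genes, so these shares describe the list and are not a test. Another motif, TGACGTGG, which is related to the XBP1 site, was found in 0 of 33 and in 0.714% of all genes. The spacer letters differed between all 8 sites of the first form, and a match describes the letters and does not show that a factor binds there.

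**Figure D1:**
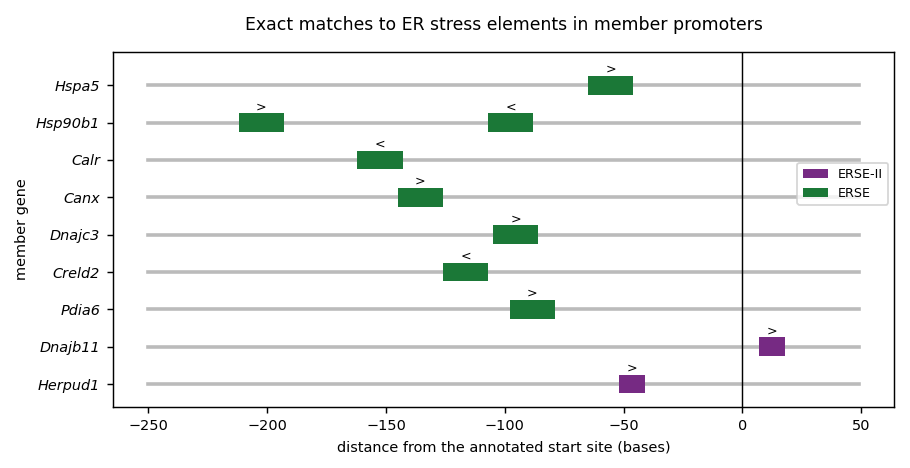
Position of the ER stress response element (green) and its second form (purple) in the promoters of the 9 genes that hold one, against the distance in bases from the annotated start, with the pointer giving the strand. All matches lie upstream of the start except that of Dnajb11, at 7 to 17.

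The whole promoter windows are shown for Hspa5, which encodes the main HSP70 chaperone of the ER and is the usual readout of this response, and for Calr and Pdia6, the 2 genes with the element whose levels passed the test between cell types. Capitals again mark the constant letters, which read CGTGG and ATTGG where the match lies on the opposite strand, as in Calr. The Hspa5 window is chr2:34771840-34772139 on the plus strand, with the element at -65 to -47 from the start.
Hspa5: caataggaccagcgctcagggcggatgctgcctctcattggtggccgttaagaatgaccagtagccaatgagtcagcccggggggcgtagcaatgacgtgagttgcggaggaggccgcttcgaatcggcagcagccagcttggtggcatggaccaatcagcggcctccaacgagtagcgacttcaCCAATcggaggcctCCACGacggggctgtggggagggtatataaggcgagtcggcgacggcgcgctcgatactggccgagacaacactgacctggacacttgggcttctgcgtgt
The Calr window is chr8:84846882-84847181 on the minus strand, with the element at -162 to -144.
Calr: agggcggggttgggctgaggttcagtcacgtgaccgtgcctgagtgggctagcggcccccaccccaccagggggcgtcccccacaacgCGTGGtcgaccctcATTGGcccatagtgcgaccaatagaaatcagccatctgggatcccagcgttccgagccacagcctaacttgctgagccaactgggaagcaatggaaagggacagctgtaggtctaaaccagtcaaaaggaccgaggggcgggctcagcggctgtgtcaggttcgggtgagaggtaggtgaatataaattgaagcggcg
The Pdia6 window is chr12:17266339-17266638 on the plus strand, with the element at -98 to -80.
Pdia6: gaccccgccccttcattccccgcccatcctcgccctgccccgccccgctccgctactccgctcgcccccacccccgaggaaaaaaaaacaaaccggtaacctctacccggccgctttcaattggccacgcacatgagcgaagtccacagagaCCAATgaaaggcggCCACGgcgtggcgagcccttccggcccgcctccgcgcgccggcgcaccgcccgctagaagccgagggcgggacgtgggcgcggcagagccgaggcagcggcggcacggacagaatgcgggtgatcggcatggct

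One array stood apart before any comparison. Dot1l-deleted LSK array K1272 had an upper quartile of log2 intensity of 6.19 (other arrays of its group 6.70 to 6.78), a mean Spearman rho of 0.649 against the other arrays of its group and of 0.723 against the control GMP arrays, and a mean level of LSK markers of 5.34 (other Dot1l-deleted LSK arrays 6.68 to 9.54). The other 20 arrays had a mean correlation of 0.810 to 0.957 with their group. Dot1l-deleted GMP arrays K1190 and K1272 were the closest pair of their group, with a Spearman correlation of 0.988. Dot1l itself had a level of 5.62 to 6.60 in Dot1l-deleted GMP against 6.55 to 6.95 in control GMP, and of 5.95 to 7.01 in Dot1l-deleted LSK against 6.08 to 6.93 in control LSK, and missed the test in both (limma adjusted p = 0.34 and 0.985). Whether its probe set lies in the deleted part is not given, so this does not check the labels. The mean of 6 LSK markers was 4.99 to 5.88 in control GMP and 9.19 to 9.61 in control LSK, and that of 9 GMP markers was 10.74 to 11.42 and 8.48 to 9.52. Kit and Cd34, which stand in both lists, had -2.63 (adjusted p = 0.00795) and -1.92 (adjusted p = 0.0801) in control GMP relative to control LSK, so Kit fell in the cells labelled GMP. The LSK marker mean of Dot1l-deleted LSK K1272 lay inside the control GMP range. Its GMP marker mean, 8.88, lay below the control GMP range and inside the control LSK range.

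**Figure D2:**
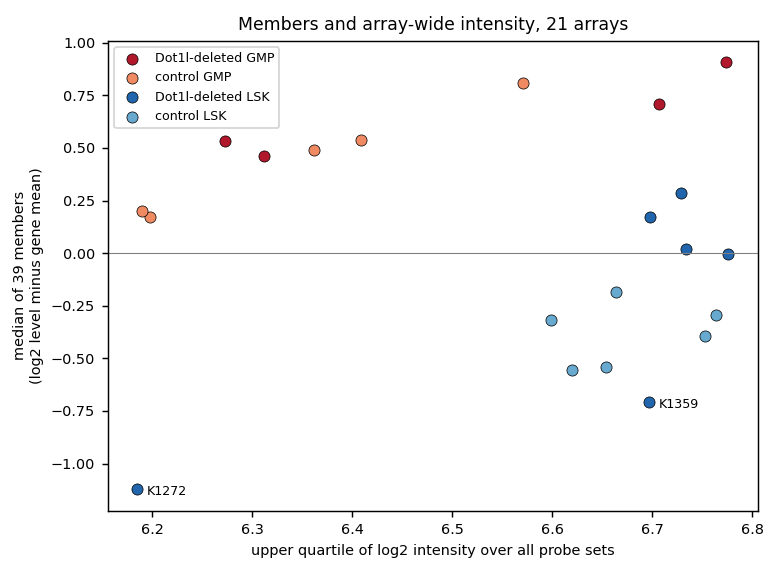
Upper quartile of log2 intensity of each array (x axis) against the median of the 39 ER genes, each centred on its own mean over all arrays (y axis, log2). Dot1l-deleted LSK K1272 lies lowest on both axes, at 6.19 and -1.12, and Dot1l-deleted LSK K1359 has the second lowest median, at -0.71.

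Control GMP carried more transcript of a large share of the ER genes than control LSK cells did. Of the 39 genes, 13 rose in control GMP and 1, Ddit3, fell, at a limma adjusted p under 0.05 over all 18194 genes, against a background of 7.03% of all genes called higher and 4.95% called lower. The ER genes had a median log2 fold change of 0.81 and 31 of 39 were positive, against a median of 0.29 and 65.8% positive over all genes. At an unadjusted p under 0.05, 19 of the 39 were higher and 1 lower, against 23.1% and 10.7% of all genes (33.8% in either direction), and in 14 of the 39 every control GMP array lay above every control LSK array and in 1 below, where 11.3% and 3.43% of all genes had these patterns. Among the 9097 genes above the median level, which include all 39, limma called 15.6% of genes and 13 of the 39, and the median of these 9097 genes was -0.07. In RNA from sorted populations, a change in the share of cells that express a gene and a change in RNA per cell cannot be told apart.

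By role, the rises covered every group but the degradation factors. Of 11 chaperones 4 rose (Sdf2l1, Manf, Hyou1 and Calr), with a median of 0.47, and of 7 folding enzymes 3 rose (P4hb, Fkbp2 and Pdia6), with a median of 0.97. Of 8 translocon genes 3 rose (Sec61b, Ssr2 and Ssr4) and of 5 signal peptidase genes 2 rose (Spcs1 and Spcs2). Of 6 stress regulators Xbp1 rose and Ddit3 fell. Both degradation genes missed the test, Edem1, which recognises misfolded glycoproteins, with 1.27 ± 0.46 (SE, adjusted p = 0.0727) and Herpud1, a scaffold of the degradation complex, with 0.31 ± 0.46 (adjusted p = 0.625).

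**Figure D3:**
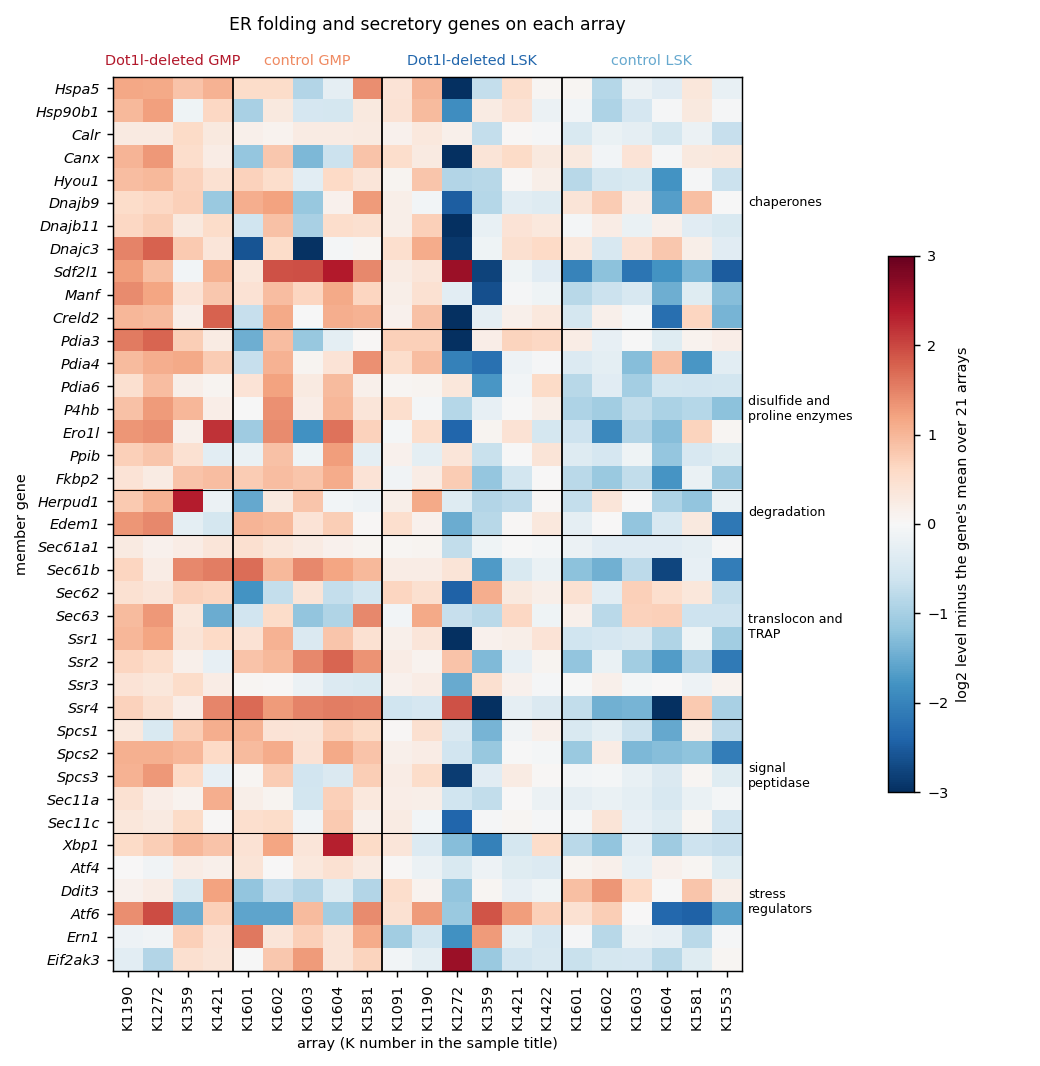
Log2 level of each of the 39 ER genes (rows, grouped by role) on each of the 21 arrays (columns, Dot1l-deleted GMP, control GMP, Dot1l-deleted LSK, control LSK), minus the mean of that gene over all arrays, on a colour scale from -3 to 3. The control GMP columns average higher than the control LSK columns in 31 of 39 rows. Dot1l-deleted LSK K1272 is the lowest array of its group in 22 of 39 rows, farthest below the others for Pdia3 (5.51), Canx (5.99), Hspa5 (5.92) and Creld2 (5.57). It is the highest array of its group in 6 of 39 rows, farthest above the others for Eif2ak3 (8.95), Sdf2l1 (11.47) and Ssr4 (11.05).

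The subunits that bring proteins into the ER included the genes with the smallest p-values. Ssr2 encodes the beta subunit of the translocon-associated protein complex (TRAP), and its log2 level was 10.54, 10.66, 11.13, 11.43 and 11.04 on the control GMP arrays, against 7.57 to 9.51 with a median of 8.59 on the control LSK arrays. The groups did not overlap, and the log2 fold change was 2.45 ± 0.35 (SE), or 5.45-fold, with an adjusted p of 0.000286. Sec61b, the beta subunit of the translocation channel, had 13.17, 12.46, 12.92, 12.68 and 12.47 in control GMP, against 8.74 to 11.25 with a median of 10.15 in control LSK, again with no overlap. Its log2 fold change was 2.67 ± 0.41 (adjusted p = 0.000557). Ssr4, the delta subunit of TRAP, had 10.84, 10.42, 10.62, 10.68 and 10.64 in control GMP and 5.55 to 9.92 with a median of 7.96 in control LSK. The control LSK arrays spread far more than the control GMP arrays for Ssr4, whose log2 fold change was 2.72 ± 0.67 (adjusted p = 0.0142), and 2 of its 3 probe sets were positive. The call for Ssr4 depended on the probe set, since the mean of its probe sets gave 1.14 (adjusted p = 0.0865) and probe sets without a suffix gave 0.69 (adjusted p = 0.502), and it also missed with the array upper quartile as a covariate (1.96, adjusted p = 0.191) and with the K number as a replicate block (2.78, adjusted p = 0.0597).

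The other 5 translocon genes missed the test. Sec61a1, which forms the channel itself, had 0.51 ± 0.17 (adjusted p = 0.0509), and the TRAP alpha subunit Ssr1 had 1.07 ± 0.48 (adjusted p = 0.127). Ssr3, the gamma subunit, had -0.19 ± 0.26, Sec63, a J-domain partner of the channel, had -0.05 ± 0.53, and its companion Sec62 had -0.85 ± 0.48 (adjusted p = 0.207). The 8 translocon genes thus lay between -0.85 and 2.72.

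Of the signal peptidase genes, those of 2 accessory subunits passed. Spcs2, an accessory subunit, had 11.28, 11.45, 10.77, 11.46 and 11.18 in control GMP, against 8.27 to 10.55 with a median of 9.09 in control LSK, with no overlap. Its log2 fold change was 2.03 ± 0.32 (adjusted p = 0.000576), and both of its probe sets were positive. Spcs1, the smallest accessory subunit, spanned 11.95 to 12.62 in control GMP and 10.03 to 11.75 in control LSK, with a log2 fold change of 1.21 ± 0.34 (adjusted p = 0.0266) and 2 of 3 probe sets positive. The third accessory subunit gene, Spcs3, had 0.29 ± 0.47, and the catalytic subunit genes Sec11a and Sec11c had 0.39 ± 0.24 and 0.51 ± 0.36, with adjusted p of 0.657, 0.236 and 0.294.

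Among folding enzymes, P4hb encodes protein disulfide isomerase itself, and its level was 10.72, 12.10, 10.92, 11.72 and 11.08 in control GMP, against 9.49 to 9.99 with a median of 9.78 in control LSK. No control LSK array reached the lowest control GMP array, and the log2 fold change was 1.54 ± 0.27 (adjusted p = 0.00149). Fkbp2, an ER proline isomerase of the FK506-binding family, had 11.39, 11.57, 11.47, 11.76 and 11.05 in control GMP and 8.87 to 10.45 with a median of 9.70 in control LSK. The control GMP arrays lay within a narrow range above all control LSK arrays, with a log2 fold change of 1.75 ± 0.30 (adjusted p = 0.00127). Pdia6, another disulfide isomerase, had 8.84, 9.64, 8.69, 9.37 and 8.58 in control GMP and 7.40 to 8.08 with a median of 7.86 in control LSK, with 1.24 ± 0.33 (adjusted p = 0.0203). Ppib, the ER cyclophilin, had 0.81 ± 0.30 (adjusted p = 0.081). The disulfide isomerase gene Pdia4, the disulfide oxidase gene Ero1l and Pdia3, which works with calnexin and calreticulin, had 0.97, 0.84 and -0.37, with adjusted p of 0.206, 0.337 and 0.738.

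The chaperone genes that passed encode cofactors and a lectin, and Hspa5 and Hsp90b1 did not pass. Sdf2l1, a stress-inducible partner of the ER J-domain proteins, had 9.26, 10.81, 10.84, 11.28 and 10.35 in control GMP, against 6.42 to 7.68 with a median of 7.01 in control LSK. Its log2 fold change of 3.45 ± 0.60, or 10.9-fold, was the largest of the 39 genes (adjusted p = 0.0015), and the groups did not overlap. Manf, a stress-inducible factor that binds the HSP70 chaperone and can be secreted, had 10.97, 11.47, 11.17, 11.67 and 11.18 in control GMP and 9.06 to 10.18 with a median of 9.79 in control LSK. All control GMP arrays were higher, with 1.60 ± 0.41 (adjusted p = 0.0166). Calr, the calcium-binding lectin chaperone calreticulin, rose by 0.59 ± 0.18 (adjusted p = 0.0379). Hyou1, the nucleotide exchange factor of the HSP70 chaperone, rose by 1.09 ± 0.32 (adjusted p = 0.0334), although its groups overlapped.

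Hspa5 had 12.13, 12.12, 10.69, 11.30 and 12.98 in control GMP, against 10.71 to 11.91 with a median of 11.38 in control LSK. The control GMP arrays spread on both sides of the control LSK range, and the log2 fold change was 0.47 ± 0.81 (adjusted p = 0.678). Hsp90b1, the ER member of the HSP90 family, had -0.07 ± 0.40, and the membrane lectin Canx had -0.50 ± 0.73, with adjusted p of 0.903 and 0.621. The J-domain cofactor genes Dnajb9, Dnajb11 and Dnajc3 had 0.41, 0.19 and -1.16, with adjusted p of 0.586, 0.798 and 0.214. For Dnajc3 only 2 of 5 probe sets were negative. Creld2, a stress-inducible gene, had 1.09 ± 0.71 (adjusted p = 0.266).

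Among regulators, the transcription factor gene Xbp1 had 8.2, 8.95, 8.12, 10.10 and 8.33 in control GMP, against 6.57 to 7.45 with a median of 7.01 in control LSK. Each control GMP array lay above each control LSK array, array K1604 by the widest margin, and the log2 fold change was 1.76 ± 0.40 (adjusted p = 0.00964), with 4 of 4 probe sets positive. These arrays measure total Xbp1 transcript and do not tell its spliced form from its unspliced form. Ddit3, which encodes the late stress factor CHOP, had 6.52, 7.01, 6.83, 7.32 and 6.83 in control GMP, against 7.71 to 9.05 with a median of 8.43 in control LSK. Here the control GMP arrays were all below the control LSK arrays, with -1.45 ± 0.32, or 0.367-fold (adjusted p = 0.00707), and both probe sets were negative.

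Atf4, the factor translated when PERK is active, had 11.46, 11.08, 11.39, 11.52 and 11.34 in control GMP and 10.71 to 11.21 with a median of 11.13 in control LSK. These ranges overlapped, with 0.32 ± 0.16 (adjusted p = 0.162). The sensor gene Ern1 just missed the threshold with 1.19 ± 0.39 (adjusted p = 0.0511), and Eif2ak3 and Atf6 had 1.10 ± 0.47 and 0.50 ± 0.76, with adjusted p of 0.111 and 0.635.

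**Figure D4:**
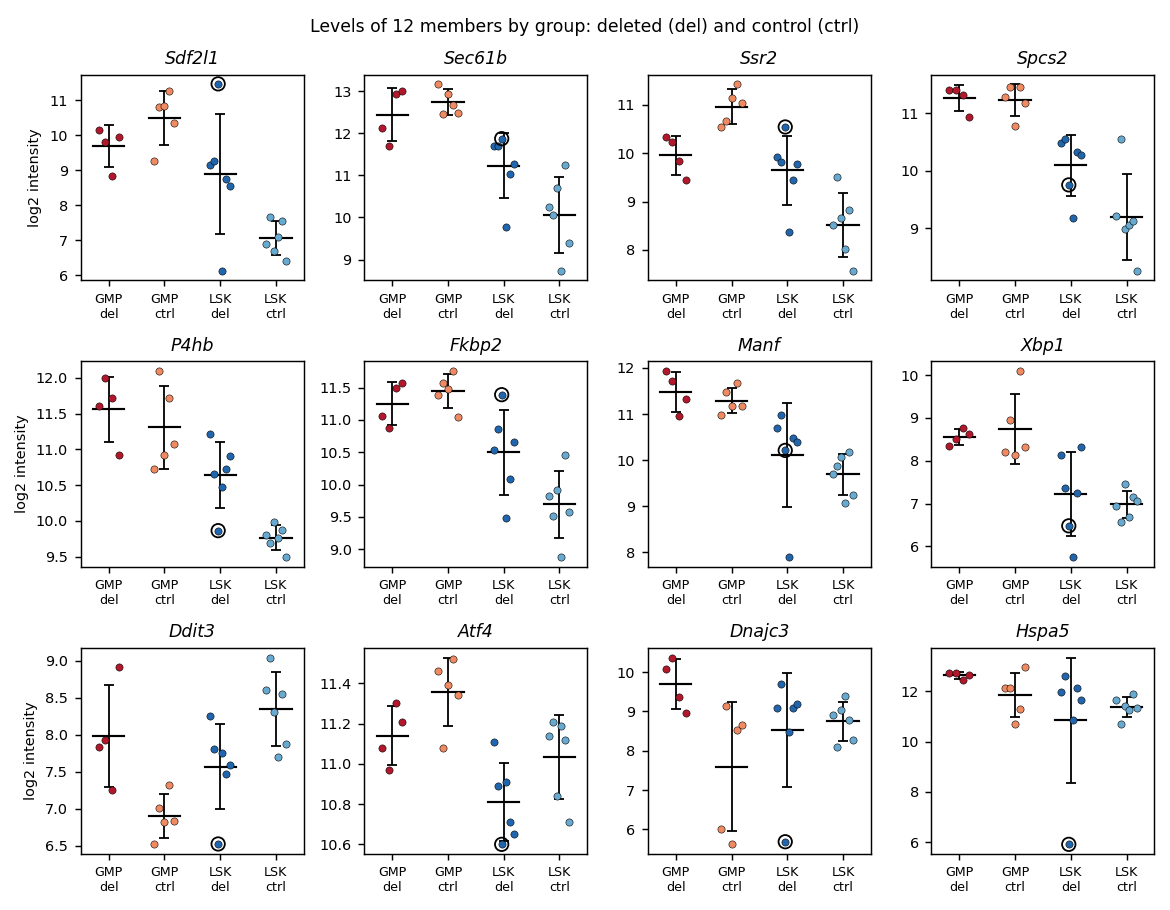
Log2 intensity of 12 ER genes on each array, by group (Dot1l-deleted GMP, control GMP, Dot1l-deleted LSK, control LSK), with the group mean as a line, its SD as a bar and Dot1l-deleted LSK K1272 ringed. Sdf2l1 averages 9.69, 10.51, 8.89 and 7.06 in these groups, and Ddit3 averages 7.99, 6.90, 7.57 and 8.35.

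Other gene groups of the secretory route, known ATF4 targets and granule cargo genes were counted in the same comparison. Of 10 subunits of the oligosaccharyltransferase, which adds sugar chains to proteins entering the ER, 4 rose in control GMP with a median of 1.25, led by Krtcap2 at 2.45 ± 0.42 (SE, adjusted p = 0.00118) and Dad1 at 1.69 ± 0.35 (adjusted p = 0.00557). Of 14 further degradation genes 2 rose (Edem2 at 1.28 ± 0.37 and Selenos at 1.77 ± 0.55), and of 7 genes of the signal recognition particle and its receptor 1 rose (Srp9 at 1.46 ± 0.43). Of 25 genes of traffic between ER and Golgi, 2 rose (Sec24d at 1.35 ± 0.35 and Cope at 1.63 ± 0.46) with a median of 0.04. Of 19 known ATF4 target genes 3 rose, led by the transcription factor gene Cebpb at 2.39 ± 0.52 and the serine hydroxymethyltransferase gene Shmt2 at 0.78 ± 0.18. Of 16 granule cargo genes 8 rose and 1 fell, led by the protease inhibitor gene Cst7 at 4.4 ± 0.55 and the protease gene Prtn3 at 4.51 ± 0.57. Over all genes 7.03% were called higher, and the lists were not tested against that share. In none of the 6 lists except granule cargo was a gene called lower.

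Markers of other cells were read beside these rises. The mean of 8 plasma and B cell markers, from cells that are themselves rich in ER, was 4.69 to 5.05 in control GMP and 4.69 to 5.25 in control LSK. The mean of 8 late neutrophil markers was 8.04 to 8.72 in control GMP and 7.75 to 12.16 in control LSK, that of 6 monocyte markers was 6.38 to 6.89 and 4.94 to 6.54, that of 8 endothelial and stromal markers 4.88 to 5.40 and 4.84 to 5.13, and that of 5 erythroid markers 4.33 to 5.34 and 4.60 to 5.53. Of these lists limma called 1 gene higher and 1 lower among plasma and B cell markers, 2 lower among late neutrophil markers, 1 higher among monocyte markers, 1 higher among endothelial and stromal markers and 0 among erythroid markers. Their part in the result was not tested. The upper quartile of the arrays was 6.19 to 6.57 in control GMP and 6.60 to 6.76 in control LSK, and with it as a covariate 13 ER genes were called higher, 9 of them among the 14, Ddit3 was not called, 3.26% of all genes were called, and the median of all genes was 0.01. Without Dot1l-deleted LSK K1272, which enters through the shared spread alone, the number called was 22, against 30.4% of all genes.

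In LSK cells no ER gene passed the test after Dot1l deletion. Limma called 0 of 39, against a background of 0.0% of all genes, and the smallest adjusted p was 0.446. At an unadjusted p under 0.05, 8 ER genes were higher and 1 lower, or 9 of 39, against a background of 3.13% of all genes higher and 2.48% lower (5.61% in all). The median log2 fold change was 0.23 with 26 of 39 positive, against a median of 0.06 and 58.4% positive over all genes, and with 1 array left out it ran from 0.07 without Dot1l-deleted K1190 to 0.40 without Dot1l-deleted K1272. The higher genes at this looser limit were Ssr2, P4hb, Sdf2l1, Spcs2, Sec61b, Fkbp2, Atf6 and Calr, and the lower one was Ddit3. Array K1272 was the highest deleted array for Ssr2, Sdf2l1, Sec61b and Fkbp2, and the lowest for P4hb, Atf6 and Ddit3.

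Ssr2 had 8.38 to 10.54 with a median of 9.79 in Dot1l-deleted LSK, against 7.57 to 9.51 with a median of 8.59 in control LSK. The ranges overlapped, and the log2 fold change was 1.13 ± 0.33 (SE, adjusted p = 0.446). P4hb had 9.86 to 11.22 with a median of 10.69 in Dot1l-deleted LSK and 9.49 to 9.99 with a median of 9.78 in control LSK. For P4hb only array K1272, at 9.86, lay inside the control range, and the log2 fold change was 0.87 ± 0.26 (adjusted p = 0.446). Sdf2l1 had 6.14 to 11.47 with a median of 8.96 in Dot1l-deleted LSK, against 6.42 to 7.68 with a median of 7.01 in control LSK. Its highest value came from array K1272 and its lowest from array K1359, 5 of 6 deleted arrays lay above all controls, and the log2 fold change was 1.83 ± 0.58 (adjusted p = 0.56). Without array K1359 it was 2.38 with an adjusted p of 0.0354, and without array K1272 it was 1.31. Without array K1272 Ssr2 had 0.95 and P4hb 1.03, with adjusted p of 0.562 and 0.17.

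Spcs2 had 9.19 to 10.56 with a median of 10.30 in Dot1l-deleted LSK and 8.27 to 10.55 with a median of 9.09 in control LSK, with 0.90 ± 0.30 (adjusted p = 0.632). Sec61b had 9.78 to 11.87 with a median of 11.49 in Dot1l-deleted LSK and 8.74 to 11.25 with a median of 10.15 in control LSK, with 1.16 ± 0.40 (adjusted p = 0.642). Both genes are therefore among those with overlapping groups, as all 39 were in this comparison, where 0.187% of all genes had every deleted array above the controls and 0.143% below. Ddit3 had 6.53 to 8.25 with a median of 7.68 in Dot1l-deleted LSK, against 7.71 to 9.05 with a median of 8.43 in control LSK, with -0.78 ± 0.30 (adjusted p = 0.749). Without array K1272 Spcs2 had 0.97, Sec61b 1.03 and Ddit3 -0.57, with adjusted p of 0.521, 0.717 and 0.898.

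Hspa5 had 11.99, 12.59, 5.92, 10.87, 12.11 and 11.64 in Dot1l-deleted LSK, against 10.71 to 11.91 with a median of 11.38 in control LSK. The value of 5.92 came from array K1272, and the log2 fold change of -0.52 ± 0.77 (adjusted p = 0.985) was 0.46 ± 0.35 without that array, so its sign rests on 1 array. Xbp1 had 5.74 to 8.32 with a median of 7.30 in Dot1l-deleted LSK and 6.57 to 7.45 with a median of 7.01 in control LSK, with 0.23 ± 0.39. Atf4 had 10.60 to 11.11 with a median of 10.80 in Dot1l-deleted LSK and 10.71 to 11.21 with a median of 11.13 in control LSK, with -0.23 ± 0.15, and both had an adjusted p of 0.985. The stress regulators as a group had a median of 0.05, the chaperones 0.08 and the folding enzymes 0.49.

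Marker genes were read in the same comparison. All 6 LSK markers had negative values with a median of -1.72, all 8 late neutrophil markers were negative with a median of -2.36, and 7 of 9 GMP markers were positive with a median of 0.61, with 0 of them called by limma. The mean of the GMP markers was 8.50 to 10.38 in Dot1l-deleted LSK and 8.48 to 9.52 in control LSK. Their part in the result was not tested. Array K1359 had the lowest GMP marker mean of the deleted arrays, at 8.50, while array K1272 had the lowest LSK marker mean and the highest erythroid marker mean, 7.41 (other arrays of its group 4.54 to 5.20). Array weights, which ran from 0.008 for Dot1l-deleted GMP K1190 to 5.40 and whose estimate stopped before it converged, called 7 ER genes, all higher (Calr, Hyou1, P4hb, Sdf2l1, Spcs2, Ssr1 and Ssr2), against 3.64% of all genes. Of the 6 other lists (secretory route, ATF4 targets and granule cargo), limma called 0 genes, and their medians lay between -0.18 for traffic genes and 0.17 for oligosaccharyltransferase subunits.

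In GMP limma also called 0 of 39 ER genes after Dot1l deletion, with a smallest adjusted p of 0.213, against a background of 0.0824% of all genes higher and 0.0605% lower (0.143% in all). At an unadjusted p under 0.05, 5 ER genes were higher (Ddit3, Dnajc3, Sec62, Herpud1 and Hsp90b1) and Ssr2 was lower, or 6 of 39, against a background of 5.72% of all genes higher and 8.23% lower (13.9% in all). The median log2 fold change was 0.25 with 24 of 39 positive, against a median of -0.20 and 34.3% positive over all genes, and it ran from 0.11 without Dot1l-deleted K1272 to 0.37 without Dot1l-deleted K1359. Among the 9097 genes above the median level, which include all 39, the median was 0.0002, so genes of like level did not share the fall over all genes. With the array upper quartile as a covariate the median of the ER genes was -0.05 and that of all genes -0.07, and the sign of the list's median turned.

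Ddit3 had 7.84, 7.93, 7.26 and 8.92 in Dot1l-deleted GMP, against 6.52, 7.01, 6.83, 7.32 and 6.83 in control GMP. The deleted arrays were higher except that K1359, at 7.26, lay below control K1604, and the log2 fold change was 1.08 ± 0.35 (SE, adjusted p = 0.213). Dnajc3, a J-domain cofactor also known as p58IPK, had 10.09, 10.37, 9.37 and 8.96 in Dot1l-deleted GMP, against 6.01, 9.14, 5.62, 8.54 and 8.64 in control GMP. The control arrays spread widely, K1601 and K1603 lying far below the others, and the log2 fold change was 2.11 ± 0.74 (adjusted p = 0.245) with 5 of 5 probe sets positive. Control K1601 and K1603 also had the lowest upper quartiles of log2 intensity in their group, 6.20 and 6.19, and the part of this was not tested. Ssr2 had 10.33, 10.22, 9.85 and 9.44 in Dot1l-deleted GMP, against 10.54, 10.66, 11.13, 11.43 and 11.04 in control GMP. All deleted arrays lay below all controls, with -1.0 ± 0.39 (adjusted p = 0.271). Ssr2 was the only ER gene with every deleted array below the controls, where 2.97% of all genes had this pattern.

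Sec62 had 10.14, 10.05, 10.38 and 10.33 in Dot1l-deleted GMP, against 7.89, 8.97, 10.07, 8.97 and 9.13 in control GMP. Control K1603 lay inside the range of the deleted arrays and the other controls below it, and the log2 fold change was 1.22 ± 0.53 (adjusted p = 0.327). Herpud1 had 7.10, 7.36, 8.67 and 6.16 in Dot1l-deleted GMP, against 4.78, 6.63, 7.17, 6.24 and 6.18 in control GMP. These values overlapped and 1 of 2 probe sets was positive, with 1.12 ± 0.51 (adjusted p = 0.34). Ssr3 and Calr were the 2 genes with every deleted array above the controls, where 1.81% of all genes had this pattern. Ssr3 had 12.55, 12.48, 12.71 and 12.36 in Dot1l-deleted GMP against 12.20, 12.19, 11.98, 11.75 and 11.70 in control GMP, with 0.56 ± 0.29 (adjusted p = 0.38), and for Calr the groups were apart by less than the second decimal, with 0.14 ± 0.20.

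Hspa5 had 12.74, 12.71, 12.44 and 12.63 in Dot1l-deleted GMP, against 12.13, 12.12, 10.69, 11.30 and 12.98 in control GMP. The deleted arrays were tightly grouped at 12.63 ± 0.14 (SD, n = 4) and the controls spread at 11.84 ± 0.88 (SD, n = 5), with control K1581 above all deleted arrays. Its log2 fold change was 0.78 ± 0.89 (adjusted p = 0.653), and -0.12 with the upper quartile as a covariate. Xbp1 had 8.34, 8.50, 8.76 and 8.62 in Dot1l-deleted GMP, against 8.2, 8.95, 8.12, 10.10 and 8.33 in control GMP, with -0.19 ± 0.45, and 0.15 without control K1604. Atf4 had 11.08, 10.97, 11.30 and 11.21 in Dot1l-deleted GMP, against 11.46, 11.08, 11.39, 11.52 and 11.34 in control GMP, with -0.22 ± 0.18 (adjusted p = 0.542).

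Late neutrophil markers had a mean of 6.90 to 7.80 in Dot1l-deleted GMP and 8.04 to 8.72 in control GMP, with 8 of 8 genes negative and a median log2 fold change of -0.96. LSK markers had a mean of 6.17 to 6.35 in Dot1l-deleted GMP and 4.99 to 5.88 in control GMP, with 5 of 6 genes positive and a median of 0.75. Limma called 0 of either list, and their part in the result was not tested. The 5 other lists (secretory route and ATF4 targets) had 0 genes called, with medians from -0.27 for ATF4 targets to 0.50 for the signal recognition particle. The 16 granule cargo genes had a median of -0.45, with Npc2, a cholesterol-binding protein gene, at -1.01 ± 0.20 and the eosinophil granule gene Prg2 at -3.20 ± 0.63 called lower (adjusted p = 0.0465 for both). Array weights called 7 ER genes (Ddit3, Dnajc3, Hsp90b1, Pdia3, Sec62 and Ssr3 higher and Eif2ak3 lower), against 20.8% of all genes. The weights of Dot1l-deleted GMP K1190, K1272, K1359 and K1421 were 0.008, 4.10, 0.36 and 0.43, so this group mean rested mostly on K1272. With Dot1l-deleted K1190 and K1272 averaged as 1 sample, Ddit3 had 1.12 (adjusted p = 0.458), Dnajc3 1.93 (adjusted p = 0.543) and Ssr2 -1.11 (adjusted p = 0.497).

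**Figure D5:**
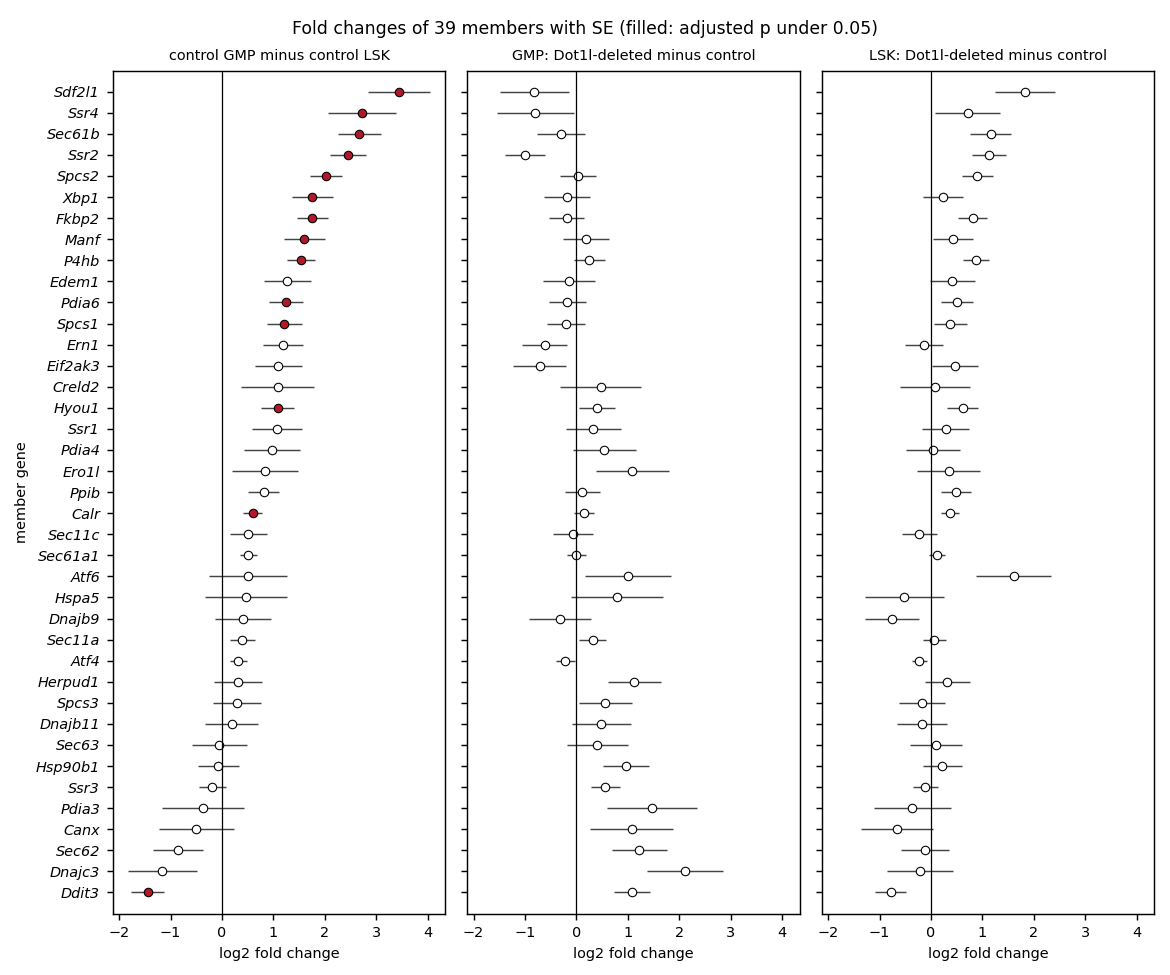
Log2 fold change of each of the 39 ER genes with its SE, in control GMP minus control LSK, in Dot1l-deleted minus control GMP and in Dot1l-deleted minus control LSK, with filled points where the adjusted p was under 0.05. Filled points appear in the first panel alone, 13 to the right of 0 and Ddit3 to the left.

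Dot1l-deleted GMP were also set against Dot1l-deleted LSK cells. Limma called 0 of 39 ER genes, with a smallest adjusted p of 0.206, against a background of 0.0495% of all genes higher and 0.0934% lower (0.143% in all). At an unadjusted p under 0.05, 13 were higher and 0 lower, against a background of 3.81% of all genes higher and 3.47% lower (7.28% in all). The median log2 fold change was 0.80 with 37 of 39 positive, against a median of 0.01 and 51.4% positive over all genes, and the negative ones were Atf6 at -0.11 and Eif2ak3 at -0.08. All 11 chaperones, 7 folding enzymes, 8 translocon genes and 5 signal peptidase genes were positive. This comparison holds array K1272 in its LSK group, and without that array the median was 0.52. The 10 oligosaccharyltransferase genes were likewise all positive, with a median of 1.0 and 0 called, and of the granule cargo genes limma called Cst7 higher, at 3.32 ± 0.59 (adjusted p = 0.0261). Of 9 GMP markers 7 were positive and 1 was called higher, all 6 LSK markers were negative with a median of -1.70, and their part in the result was not tested.

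Spcs2 had 11.41, 11.40, 11.32 and 10.93 in Dot1l-deleted GMP, against 9.19 to 10.56 with a median of 10.30 in Dot1l-deleted LSK. All GMP arrays lay above all LSK arrays, with 1.17 ± 0.34 (SE, adjusted p = 0.206). Xbp1 had 8.34, 8.50, 8.76 and 8.62 in Dot1l-deleted GMP, against 5.74 to 8.32 with a median of 7.30 in Dot1l-deleted LSK. The gap between the groups was narrow, and the log2 fold change was 1.34 ± 0.43 (adjusted p = 0.291). Sec61a1 was the third gene with no overlap, with 0.39 ± 0.18, so that 3 of 39 lay above and 0 below, where 1.1% and 0.929% of all genes did. Manf had 11.94, 11.71, 10.95 and 11.33 in Dot1l-deleted GMP, against 7.89 to 10.98 with a median of 10.45 in Dot1l-deleted LSK, with 1.37 ± 0.43 (adjusted p = 0.274). P4hb had 11.60, 12, 11.72 and 10.92 in Dot1l-deleted GMP and 9.86 to 11.22 with a median of 10.69 in Dot1l-deleted LSK, with 0.92 ± 0.29 (adjusted p = 0.274). Sec61b had 12.12, 11.70, 12.92 and 13.01 in Dot1l-deleted GMP and 9.78 to 11.87 with a median of 11.49 in Dot1l-deleted LSK, with 1.21 ± 0.44 (adjusted p = 0.425). Both genes overlapped between the groups. Hspa5 had the largest value of the 39 ER genes in this comparison, 1.77 ± 0.86 (adjusted p = 0.698), and 0.79 without array K1272. The upper quartile as a covariate called 4 genes here (P4hb, Pdia3, Spcs3 and Ssr1), against 0.561% of all genes, and array weights called 2 (P4hb and Ssr1), against 2.86%.

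Of the other regulators, Ddit3 had 7.84, 7.93, 7.26 and 8.92 in Dot1l-deleted GMP, against 6.53 to 8.25 with a median of 7.68 in Dot1l-deleted LSK, with 0.42 ± 0.34 (SE, adjusted p = 0.985). Atf4 had 11.08, 10.97, 11.30 and 11.21 in Dot1l-deleted GMP, against 10.60 to 11.11 with a median of 10.80 in Dot1l-deleted LSK, with 0.33 ± 0.17 (adjusted p = 0.743). Both genes overlapped between the groups. Without array K1272 the log2 fold changes were 1.10 for Spcs2, 1.19 for Xbp1, 1.39 for Manf, 0.76 for P4hb, 1.34 for Sec61b, 0.21 for Ddit3 and 0.29 for Atf4, and without array K1359 Manf had 0.93.

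Whether Dot1l deletion acted differently in GMP and LSK was tested as the effect in GMP minus the effect in LSK. Limma called 0 of 39 ER genes, with a smallest adjusted p of 0.154, against a background of 0.0165% of all genes positive and 0.0165% negative (0.033% in all). At an unadjusted p under 0.05, 2 were positive (Ddit3 and Dnajc3) and 4 negative (Ssr2, Sdf2l1, Sec61b and Fkbp2), or 6 of 39, against a background of 5.3% of all genes positive and 8.29% negative (13.6% in all). Over the whole list 20 of 39 were positive, against 36.2% of all genes, and the medians were 0.01 and -0.26, while without Dot1l-deleted LSK K1272 the median of the ER genes was -0.24. Among the 9097 genes above the median level, which include all 39, the median was 0.08, so the list did not lie above genes of like level. The difference of effects was -2.13 ± 0.51 (SE) for Ssr2 (adjusted p = 0.154), whose mean was 9.96 ± 0.40 in Dot1l-deleted GMP and 10.96 ± 0.36 in control GMP (SD, n = 4 and 5), and 9.64 ± 0.72 in Dot1l-deleted LSK and 8.52 ± 0.67 in control LSK (SD, n = 6 each). Ddit3 had 1.87 ± 0.46 (adjusted p = 0.177), with 7.99 ± 0.69 in Dot1l-deleted GMP and 6.90 ± 0.29 in control GMP, and 7.57 ± 0.58 in Dot1l-deleted LSK and 8.35 ± 0.50 in control LSK. In both genes the levels of the control cell types were the outer values of the 4 group means, and the deleted groups lay between them.

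Sdf2l1 had -2.65 ± 0.88 (adjusted p = 0.261), with group means of 9.69 ± 0.59 in Dot1l-deleted GMP, 10.51 ± 0.77 in control GMP, 8.89 ± 1.71 in Dot1l-deleted LSK and 7.06 ± 0.49 in control LSK. Sec61b had -1.46 ± 0.61 (adjusted p = 0.332), and Dnajc3 had 2.32 ± 0.98 (adjusted p = 0.337). Hspa5, Xbp1 and Atf4 had 1.31 ± 1.18, -0.42 ± 0.59 and 0.01 ± 0.23, with adjusted p of 0.546, 0.695 and 0.981. The comparison of control GMP with control LSK shares its arrays with both deletion comparisons, so these values are set side by side and were not correlated. Without array K1272 the values were -1.95 for Ssr2, 1.66 for Ddit3, -2.13 for Sdf2l1, 1.75 for Dnajc3 and 0.32 for Hspa5. Without Dot1l-deleted LSK K1359 Ssr2 had -2.38 with an adjusted p of 0.0411, and array weights called 6 ER genes, against 13.3% of all genes.

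The values were also read by whether a gene holds the ER stress response element. The 7 measured genes that hold its first form had a median log2 fold change of 0.47 between control GMP and control LSK, with 2 called higher, and the 25 genes with a listed promoter and no such match had a median of 0.97, with 8 called higher and 1 lower. The 7 measured genes with no listed promoter had a median of 0.51, with 3 called higher. Over all genes 7.03% were called higher and 4.95% lower. Between Dot1l-deleted and control GMP the holders had a median of 0.78 and the genes with a listed promoter and no match 0.12. Between Dot1l-deleted and control LSK these medians were 0.08 and 0.28. The LSK medians include array K1272, the lowest deleted array for the holders Hspa5, Hsp90b1, Canx, Dnajc3 and Creld2 but not for Calr or Pdia6. They were not recomputed without it, so the LSK medians are not to be set against those in GMP. All these medians describe few genes, and the holders overlap with the chaperone group.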

How the data were processed

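The members and gene lists were chosen with earlier results of these data known. The authors deposited intensities on a linear scale for 45101 probe sets on 21 arrays, which were made by RMA (version not stated), per the submitters' processing notes. That they are linear and not log2 was taken from the array medians, 25.19 to 31.48. No scan batch is recorded in the labels, and background correction and probe summary are the authors'.

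Deposited values were converted to log2 as they stood, without a pseudocount or renormalization. The platform annotation ties 34958 probe sets to 1 gene symbol, 932 to several and 9211 to none, and those with 1 symbol cover 18194 genes, which were each read from the brightest probe set. The gene listed as Ero1l is named Ero1a there. Limma 3.58.1 in R 4.3.3 fitted 4 group means over all arrays with moderated variances, and p-values were adjusted by the Benjamini-Hochberg method across the 18194 genes and called under 0.05. Adjusted p-values in the text are from this fit unless an alternative is named. The comparisons set deleted against control cells within each cell type, GMP against LSK within each genotype, and the deletion effects against each other. Groups came from sample titles.

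By rule, Hspa5, Xbp1, Atf4, Ddit3 and the 5 members of smallest p in each comparison are described with their levels, by array or, for groups of 6, mostly as the lowest, median and highest (group means for the difference of effects), every called member is named, and other lists give up to 2 genes of smallest p. Marker lists covered LSK, GMP, plasma and B, late neutrophil, erythroid, endothelial and stromal, and monocyte cells. The K numbers in the titles recur in both cell types. Same-numbered arrays did not deviate together, with correlations from -0.40 to 0.27 over 9 pairs, so they were not treated as pairs.

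On simulated data with 18194 genes, the LSK comparison recovered 77 of 100 genes with a log2 change of 2 and 21 of 100 with a change of 1, with 10 unchanged genes called. The GMP comparison recovered 59 and 19 of 100, with 2 unchanged genes called. The simulated noise was normal and independent, with the same SD in all groups for a given gene and no outlying array. The recovery in the real data, where spreads differ between groups, may therefore be different. Alternatives were repeated quantile normalization, median centring, a filter on dim genes, other probe set choices, trended and robust variances, array weights, the compared groups alone, the array upper quartile as a covariate, K1190 and K1272 of Dot1l-deleted GMP averaged, the K number as a replicate block, and each array left out. The LSK arrays alone without K1272 were added after seeing the data. Promoters came from RefSeq, build GRCm38.p6.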

Additional observations from a re-analysis of the deposited data

Results flagged for a closer look

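In groups of 4 to 6 arrays, a value was singled out where its gap to the nearest other array, divided by the range of the group, passed Dixon's 95% critical value (0.829 for 4 arrays, 0.710 for 5 and 0.625 for 6). Of 84 group tests over 21 items 8 passed, where chance alone passes about 1 in 20. Dot1l-deleted LSK K1272 was far below its group for Hspa5, with a ratio of 0.741, for Sec62, also 0.741, and for Dnajc3, 0.693. Its upper quartile of log2 intensity was apart as well, with a ratio of 0.866. Dot1l-deleted LSK K1359 was far below its group for Manf (0.751), Pdia6 (0.712) and Calr (0.667). In Dot1l-deleted GMP, array K1359 was the high one for Calr, at 12.88 where the other 3 arrays had 12.59 to 12.60, with a ratio of 0.955. The causes were not tested.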

How the results depend on the processing

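Values of the genes described in each comparison were recomputed. Under settings other than leaving out 1 array, 460 kept direction and side of the threshold, 25 lost a call, 14 gained one and 11 reversed. With 1 array left out the numbers were 996, 19, 2 and 12. Genes uncalled in both fits with the same sign count as kept. Only the 14 genes called between control GMP and control LSK had a call to lose. Between control GMP and control LSK, 26 ER genes were called with array weights (38.8% of all genes), 11 to 22 with 1 array left out (6.11% to 30.4% of all genes), and 4 (Sdf2l1, Sec61b, Spcs2 and Ssr2) with the K number as a replicate block (2.5% of all genes), which uses fewer arrays. Among the called genes, Calr was called in 17 of 31 settings, Hyou1 in 21 of 32, Spcs1 in 25 of 32 and Ssr4 in 28 of 32, and Sec61b, Spcs2 and Sdf2l1 in 32 of 32. After deletion array weights called 7 in LSK (3.64% of all genes), 7 in GMP (20.8%), 2 in Dot1l-deleted GMP against Dot1l-deleted LSK (2.86%) and 6 for the difference of effects (13.3%), and the upper quartile as a covariate called 4 in Dot1l-deleted GMP against Dot1l-deleted LSK (0.561%). Leaving out 1 array gave 0 to 1 in LSK and for the difference of effects. The 1 in each came without Dot1l-deleted LSK K1359, where 0.181% and 0.115% of all genes were called. In LSK, Hspa5 turned to 0.50 with array weights and to 0.46 in the LSK arrays alone without K1272, and lay between -0.87 and 0.46 with 1 array left out. Without suffixed probe sets (_s_at, _x_at or _a_at) Xbp1 turned to -0.10 and Atf4 to 0.19 in LSK, Atf4 to 0.38 in GMP, and Xbp1 to 0.031 for the difference of effects. With the mean of all probe sets Atf4 turned to 0.092 in LSK and to -0.16 for the difference of effects, where array weights gave -0.14. Xbp1 for that difference was 0.072 with the replicate block. In GMP, Hspa5 turned to -0.12 with the upper quartile as a covariate, and Xbp1 lay between -0.34 and 0.15 with 1 array left out. For the difference of effects Atf4 lay between -0.060 and 0.075 with 1 array left out. The replicate block could not be fitted to deletion within a cell type, since no K number occurs in both genotypes. The median of all genes between control cell types was 0.29, against 0.12 after repeated quantile normalization and 0.01 with the upper quartile as a covariate. The causes of these changes were not tested. Signals are relative, with no measure of RNA per cell.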
